A study of Mus musculus with 4 samples.

Results

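Conventional CD4 T cells in these data were the 308 cells of the BTYNB library that carried T cell receptor complex transcripts and Cd4 but neither Foxp3 nor Cd8. Members were chosen by these UMI counts alone, so the levels of the gate genes are a description. They were taken from 18283 kept cells of that library and from 46342 cells in the whole series. A cell was a member if it had at least 200 genes, at most 33% mitochondrial unique molecular identifiers (UMIs), at least 2 UMIs of Cd3d, Cd3e and Cd3g together and at least 1 UMI of Cd4. It also had 0 UMIs of Foxp3, 0 of Cd8a and Cd8b1, and at most 2 UMIs each of Cd79a with Cd79b, of Lyz2, and of the keratins Krt7, Krt8, Krt18 and Krt19. For CD8 cells at least 1 UMI of Cd8a or Cd8b1 and 0 of Cd4 were required, with no limit on Foxp3 and the other limits unchanged. This gave 1084 CD8 cells, against which the helper and memory states of the CD4 cells were described.

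The series addressed how BTYNB, a small molecule directed at the RNA-binding protein IGF2BP1, alters ascites with or without PD-1 blockade. ID8-Trp53-/- cells, a murine ovarian tumour line lacking Trp53, were placed in the peritoneum of immunocompetent C57BL/6 mice, which the methods describe as female and 6 weeks old. Dosing started 7 days later, was repeated within each week and went on to an ascites volume of about 3 mL. Animals of the control group were given DMSO and an IgG2a antibody, the BTYNB group BTYNB at 50 mg/kg and IgG2a, the anti-PD-1 group DMSO and clone RMP1-14, and the combination group BTYNB and RMP1-14, with each antibody at 100 ng per dose according to the labels; the methods give other amounts. All groups carried the same tumour line. Cells of 6 mice per treatment were pooled into 1 library, so no spread between animals could be measured and no test was made; intervals in parentheses are 95% exact intervals that cover counting error only. The label names the material an IP xenograft, whereas the design text describes a syngeneic model.

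CD4 T cells recognise peptides on MHC class II. Naive cells recirculate through lymph nodes with homing receptors such as Ccr7, whereas memory and effector cells lose these and gain adhesion molecules such as Cd44 and Itgb1. Helper cells act through CD40 ligand and cytokines. Type 1 helper (Th1) cells use Tbx21 and interferon-gamma, type 2 (Th2) cells Gata3 and interleukins 4, 5 and 13, Th17 cells interleukin 17, and follicular helper (Tfh) cells Bcl6, Cxcr5 and interleukin 21. CD8 cells are built around killing, with perforin, granzymes and natural killer receptors.

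Nearly every CD4 cell lay in the BTYNB library, whose cells were shallower than those of the other libraries. CD4 cells made up 1.68% (1.5 to 1.88%) of kept cells there. The control library held 0 among 7834 cells, which allows a share of up to 0.0383% (limits beside a count of 0 are 3 counts of the total, and the 2-sided interval of the control library ends at 0.0471%), and the anti-PD-1 library 0 among 12019, which allows up to 0.025%. The combination library held 4 of 7042, 0.0568% (0.0155 to 0.145%). The smallest deposited cell had 869 UMIs in BTYNB, whereas the smallest had 4438 UMIs in the control library, 3533 under anti-PD-1 and 5115 under the combination, so small cells were represented in BTYNB alone. Among cells of at least 5115 UMIs, 14 of 5521 BTYNB cells were CD4 cells, 0.254% (0.139 to 0.425%), beside the same 4 of 7042 under the combination. The control library then held 0 of 7367, which allows up to 0.0407%, and the anti-PD-1 library 0 of 9256, which allows up to 0.0324%. These intervals for BTYNB and combination overlap. The part of this depth difference in the share of CD4 cells was not tested. No pair of libraries shared more than 4 cell barcodes, and 1 CD4 or CD8 cell was among them for control with BTYNB and for BTYNB with anti-PD-1.

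Within the T cell gate of 2227 BTYNB cells, CD4 cells were 13.8% (12.4 to 15.3%) and CD8 cells 48.7% (46.6 to 50.8%), giving 0.284 (0.25 to 0.323) CD4 cells per CD8 cell. With 2 UMIs of Cd4 or of Cd8 required, this ratio was 0.144. Foxp3-positive cells, taken here as the regulatory T cells, were 116 or 5.21%. This gate set no limit on Cd4 or Cd8. Among its cells, 58 had Cd4 and no Cd8, 50 had neither, and 4 were also in the CD8 gate. Of the 392 gated cells with Cd4, 62 or 15.8% (12.3 to 19.8%) carried Foxp3. A further 701 cells, 31.5%, had none of Cd4, Cd8 and Foxp3. Median depth was 1896 UMIs in CD4 cells, 2222 in CD8 cells and 1818 in the cells with none, the median mitochondrial share was 7.64% in CD4 and 10.4% in CD8 cells, and at this depth a cell can express Cd4 without a UMI of it. The share of CD4 cells is therefore a share of cells with detected Cd4.

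The gate genes themselves described the members. Cd4, the co-receptor, had 503 UMIs over the 308 cells, with 1 UMI in 182 cells, 2 in 78 and at least 3 in 48, and no more than 6 in any cell. Cd3e, a chain of the receptor complex, was found in 271 cells at 921 CPM (a gene's UMIs summed over the cells, per 1000000 UMIs of the same cells) and at 860 CPM in CD8 cells. The Cd3 sum stood at the threshold of 2 in 105 members. Just outside, 128 cells failed only by a Cd3 sum of 1, 6 only by 1 Foxp3 UMI, 12 only by 1 Cd8 UMI, 3 only by a keratin sum of 3 and 1 only by a Cd79 sum of 3.

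Genes that the gate did not use bore out the T cell label. A UMI of the receptor constant genes Trac, Trbc1 or Trbc2 was present in 289 CD4 cells, 93.8%, compared with 95.9% of CD8 cells. It was present in 2.74% of B cells at a similar median depth of 1839 UMIs, and in 16.5% of tumour cells at a median of 15191 UMIs. Over the 16 T cell identity genes, which include the kinases Lck and Zap70 and the receptors Cd2 and Cd28, summed levels were 7679 CPM in CD4 cells, 5820 CPM in CD8 cells and 253 CPM in B cells. Cd5, which dampens receptor signals, was at 257 CPM in CD4 and 73.6 CPM in CD8 cells, and Cd28, the receptor for costimulation, at 457 and 190 CPM.

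CD4 and CD8 cells were compared over 7371 genes with at least 50 UMIs in both together and found in at least 20 cells, the gate genes left out. At least 2-fold higher levels in CD4 cells were seen for 266 genes, 3.61% of those tested, and at least 2-fold lower levels for 284, 3.85%. The median log2 ratio of CD4 to CD8 CPM was 0.13. With the levels scaled so that this median was 0, 181 genes were past 2-fold higher and 364 lower. Where one kind of cell had no UMI, its count was set to 3, so a ratio against it is a bound. CD4 cells held 684351 UMIs and CD8 cells 2811572, so a gene low in CD4 cells met the minimum through the CD8 cells, and counts of lower genes are descriptions for that reason. The genes with the highest ratios included Cd40lg, Trat1, Ramp3, Rora, Maf, P2rx7 and Icos, and those with the lowest included Samd3, Adgrg5, Ly6c2, Prf1, Klri2 and Klrc2. Of the 12 lowest, 10 rested on 1 UMI in CD4 cells, the exceptions being Ly6c2 with 25 and Prf1 with 3.

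**Figure D1:**
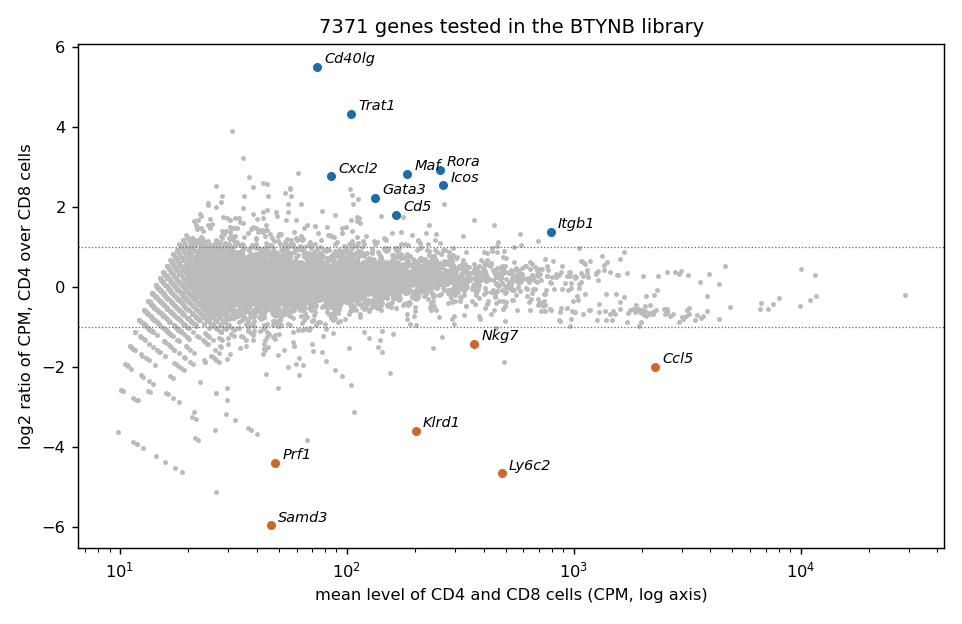
Each point is 1 of 7371 genes in the BTYNB library, placed by the mean of its CD4 and CD8 levels (CPM, log axis) and by the log2 ratio of CD4 to CD8 CPM, with dotted lines at 2-fold. Cd40lg lies highest at 5.50 and Samd3 lowest at -5.96, the latter resting on 1 UMI in CD4 cells.

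Helper lineage genes were higher in CD4 than in CD8 cells. Cd40lg, the ligand with which helper cells license B cells and dendritic cells, was at 145 CPM (118 to 176) from 99 UMIs in 58 CD4 cells and at 3.20 CPM from 9 UMIs in CD8 cells, a log2 ratio of 5.50 (4.52 to 6.67). It was at 51.9 CPM in the cells with none of Cd4, Cd8 and Foxp3, at 13.5 CPM in Foxp3 cells and at 0.784 CPM in B cells, so that the CD4 cells had the highest level of these gates. Trat1, an adaptor that stabilises the receptor complex at the surface, was at 199 CPM in 77 cells against 9.96 CPM in CD8 cells, a log2 ratio of 4.32 (3.72 to 4.96), and at 143 CPM (107 to 187) in Foxp3 cells.

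Of the 6 tested helper lineage genes, 4 were past 2-fold higher and none lower, with a median log2 ratio of 1.79. Against Foxp3 cells 2 of 6 were past 2-fold higher (Cd40lg and Tnfsf8) and 2 lower (Izumo1r and Tox), with summed levels of 1024 CPM in CD4 and 1059 CPM in Foxp3 cells. Gata3, a transcription factor needed for CD4 development as well as for Th2 cells, was at 219 CPM in CD4 and 46.9 CPM in CD8 cells, a log2 ratio of 2.22 (1.88 to 2.57). Izumo1r, a folate receptor family member, was at 74.5 and 15.3 CPM and Tnfsf8, the CD30 ligand, at 226 and 88.6 CPM. Tox, at 136 and 166 CPM, and Rgs10, at 164 and 141 CPM, were not past 2-fold. Zbtb7b, the ThPOK factor that fixes the CD4 fate, did not reach 50 UMIs, with 20 UMIs in CD4 cells at 29.2 CPM (17.9 to 45.1) and 24 in CD8 cells at 8.54 CPM.

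Genes of effector and tissue CD4 cells were among the largest differences from CD8 cells, though not from Foxp3 cells. Icos, a costimulatory receptor, was found in 152 CD4 cells at 454 CPM and stood at 78.2 CPM in CD8 cells, a log2 ratio of 2.54 (2.28 to 2.79). Maf, a factor for interleukin 4, 10 and 21 expression, was at 324 and 45.5 CPM, and Rora, a nuclear receptor of Th17 and innate-like cells, at 454 and 59.8 CPM. With every cell drawn down to 1000 UMIs, Icos was found in 33.1% (27.9 to 38.7%) of 305 CD4 cells, 5.67% (4.37 to 7.23%) of 1075 CD8 cells and 0.169% of 2957 B cells. Rora was found in 28.9%, 5.77% and 0.575%. Foxp3 cells had higher values of all 3 genes, with Icos at 717 CPM, Maf at 493 CPM and Rora at 536 CPM, and with drawn-down shares of 53.5%, 37.7% and 45.6%. Before this drawing down the Icos and Rora shares in CD4 cells were 49.4% and 43.5%. Maf was found in 21% of CD4, 4.19% of CD8 and 5.75% of B cells, and in 30.3% of tumour cells, where its level was 386 CPM; its share in CD4 cells was 34.1% before drawing down.

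**Figure D2:**
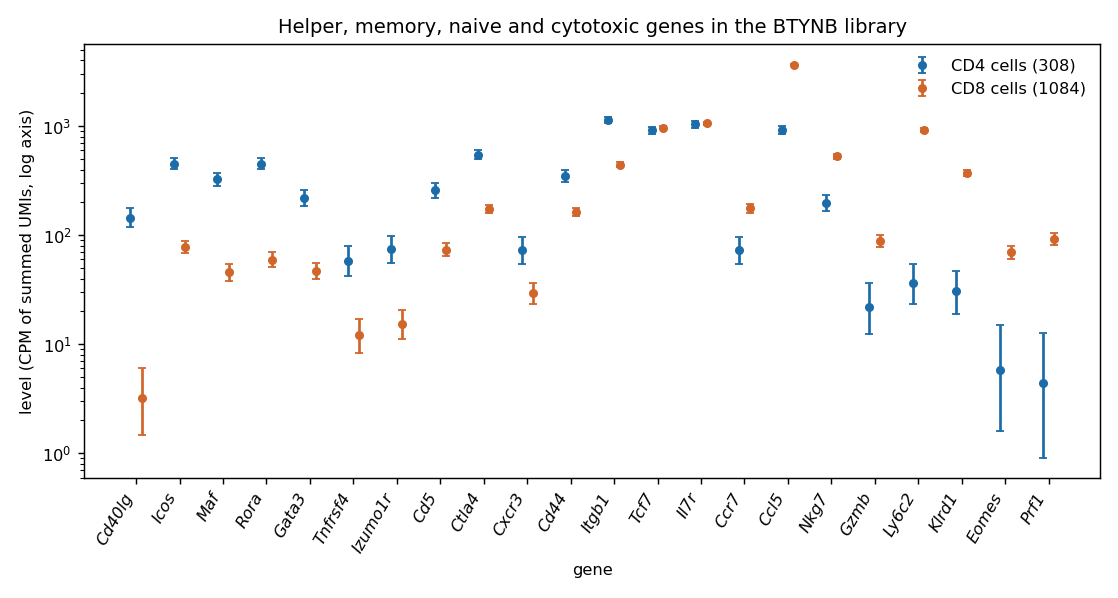
Levels (CPM of summed UMIs, log axis) of 22 genes in the 308 CD4 cells (blue) and 1084 CD8 cells (orange) of the BTYNB library, with bars for 95% exact Poisson intervals. Helper genes from Cd40lg to Izumo1r lie higher in CD4 cells, Tcf7 and Il7r coincide, and genes from Ccr7 to Prf1 lie higher in CD8 cells.

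Cytotoxic lineage genes ran the other way. Of 16 tested, 12 were at least 2-fold lower in CD4 cells and none higher, among them genes that met the minimum through CD8 cells, with a median log2 ratio of -2.0 that includes Klrc1 at its bound. Prf1, which forms the perforin pore, had 3 UMIs in 3 CD4 cells, 4.38 CPM (0.904 to 12.8), compared with 92.5 CPM in CD8 cells. Eomes, a factor of cytotoxic and memory CD8 cells, was at 5.84 and 69.4 CPM, and Klrd1, the CD94 receptor chain, at 30.7 and 372 CPM. Klrc1, the NKG2A partner of Klrd1, had 0 UMIs in CD4 cells against 117 in CD8 cells, at least 9.49-fold lower. Ly6c2, which encodes a surface antigen, was at 36.5 CPM from 12 CD4 cells and at 924 CPM in CD8 cells.

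Not every cytotoxic gene was near 0 in CD4 cells. Ccl5, a chemokine stored by effector cells, was at 918 CPM (847 to 992) in 92 CD4 cells and 3661 CPM in CD8 cells, and Nkg7, a granule protein, at 197 and 529 CPM. At 1000 UMIs per cell a Ccl5 UMI was found in 23.3% (18.7 to 28.4%) of CD4 cells, against 55.7% of CD8 and 1.96% of B cells, with 29.9% of CD4 cells before drawing down. Runx3, the factor of the cytotoxic fate, was at 254 and 209 CPM and Fasl at 29.2 and 28.1 CPM, neither past 2-fold. Gzma, at 32.1 CPM, rested on 3 CD4 cells of which 1 held 72.7% of the UMIs, and Gzmb, at 21.9 CPM in 7 cells with 40% from 1 cell, was at 87.9 CPM in CD8 cells.

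The memory state differed between the lineages. Of 12 naive genes, 4 were past 2-fold lower in CD4 cells and none higher (median log2 ratio -0.42), and of 16 memory genes 3 were higher and none lower (median 0.38). Ccr7, the receptor that guides cells into lymph nodes, was at 73.1 CPM (54.2 to 96.3) in CD4 and 176 CPM in CD8 cells. Satb1, a chromatin organiser of naive cells, was at 298 and 610 CPM, and Dapl1 at 26.3 and 79.3 CPM. Tcf7, the TCF-1 factor of naive and long-lived cells, did not separate them at 913 and 967 CPM, nor did Il7r, the survival receptor for interleukin 7, at 1043 and 1058 CPM, or Igfbp4 at 250 and 234 CPM. S1pr1, the receptor that lets cells leave tissue, was at 332 and 187 CPM, within 2-fold.

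On the memory side, Cd44, the hyaluronan receptor that marks antigen-experienced cells, was at 349 CPM (306 to 396) in CD4 and 164 CPM in CD8 cells. Itgb1, the shared integrin chain of the VLA receptors, was at 1141 and 442 CPM, and S100a4 at 117 and 47.7 CPM. Vim and S100a10 stood just under 2-fold, at log2 ratios of 0.97 and 0.96. For genes of tissue residence no difference was detectable at this depth. Cxcr6 was at 77.4 CPM (58 to 101) in CD4 and 84.3 CPM in CD8 cells and Itgae, the CD103 integrin chain, at 39.5 (26 to 57.4) and 42.3 CPM.

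Each cell was then placed by whether its memory-list UMIs exceeded its naive-list UMIs at 1000 UMIs per cell. Memory-leaning cells were 178 of 305 CD4 cells, 58.4% (52.6 to 64%), and 263 of 1075 CD8 cells, 24.5% (21.9 to 27.1%), and these intervals do not overlap. Naive-leaning cells were 36.1% and 71.9%. The median CD4 cell had 4 naive and 6 memory UMIs, the median CD8 cell 7 and 3. The measure is a range and not a pair of types, since 59 CD4 cells, 19.3%, lay within 1 UMI of equality and 87.9% of CD4 cells had UMIs of both lists. With shorter lists of 6 genes each the CD4 share was 45.2%, and with only cells of at least 2000 UMIs it was 71.3%, so its level depends on the lists and the depth.

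**Figure D3:**
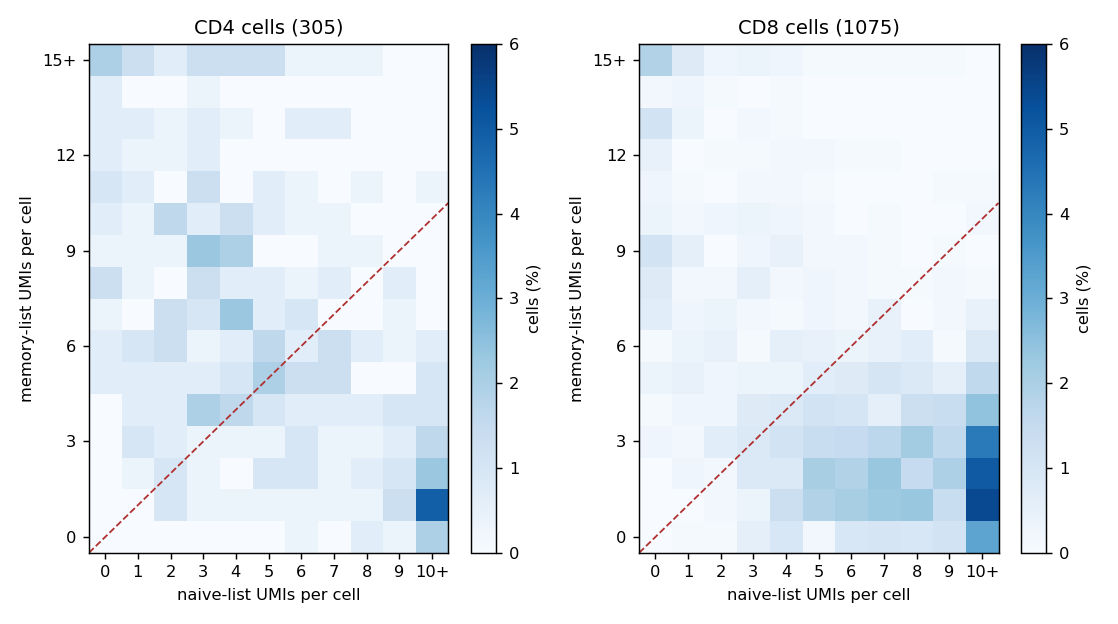
Naive-list UMIs (x axis, 10 or more combined) and memory-list UMIs (y axis, 15 or more combined) per cell at 1000 UMIs, with colour for the percent of the 305 CD4 cells (left) or 1075 CD8 cells (right), and a dashed line at equality. CD4 cells spread on both sides of the line, with 58.4% above it, while 24.5% of CD8 cells lie above.

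The memory-leaning and naive-leaning CD4 cells differed in genes outside both lists. Over 2469 genes tested between them, 187 or 7.57% were at least 2-fold higher in memory-leaning cells and 89 or 3.6% at least 2-fold lower. Their median depths were 2016 and 1768 UMIs, and the part of this in the gene differences was not tested. Ccl5 was at 1301 CPM in memory-leaning and 145 CPM in naive-leaning CD4 cells, a log2 ratio of 3.17 (2.63 to 3.76), and Nkg7 at 284 and 25 CPM. In CD8 cells the same split gave Ccl5 5583 and 2589 CPM. Ccr2, a receptor for recruitment to inflamed tissue, was at 189 and 25 CPM in the 2 groups of CD4 cells. Ccr2 is also a myeloid marker, and markers of other cells moved with the split. All 3 tested B cell markers, the class II genes Cd74, H2-Aa and H2-Ab1, were past 2-fold higher in memory-leaning cells. So were all 3 tested myeloid markers, Ccr2, Cst3 and Fcer1g. Cd74 was at 773 and 220 CPM, H2-Aa at 373 and 110 CPM and Cst3 at 591 and 180 CPM. S100a9, found in too few cells to be tested, was at 209 CPM from 94 UMIs in 8 memory-leaning cells. In naive-leaning cells it was at 25 CPM from 5 UMIs in 1 cell. The B cell gene Ighm, with too few UMIs to be tested, was at 53.3 and 85 CPM, a log2 ratio of -0.67 (-1.63 to 0.31). The part of these markers in the split was not tested.

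Few helper genes could be compared across the split. Past 2-fold higher in memory-leaning cells were 1 of 4 tested Th1 genes (Hopx), 1 of 5 follicular genes (Maf) and 1 of 5 helper lineage genes (Gata3), with none lower, and no Th2 gene was tested. Ifng, Tbx21 and Cxcr3 did not reach 50 UMIs and are given as counts. Ifng, the Th1 cytokine, had 35 UMIs in 28 memory-leaning cells and 0 UMIs in naive-leaning cells. Tbx21, the Th1 factor, had 31 and 2 UMIs (68.8 and 10 CPM), and Cxcr3, the receptor for interferon-induced chemokines, 45 and 4 UMIs (99.9 and 20 CPM). Maf was at 391 and 150 CPM and Gata3 at 269 and 130 CPM, past 2-fold. Cd40lg was at 167 and 90 CPM, a log2 ratio of 0.89 (0.13 to 1.72), Icos at 475 and 350 CPM and Rora at 482 and 380 CPM, none past 2-fold. Cd40lg UMIs were found in 41 memory-leaning and 13 naive-leaning cells.

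Some genes were higher in naive-leaning CD4 cells. Ly6c1 was at 130 CPM from 26 UMIs against 8.88 CPM from 4 UMIs in memory-leaning cells. St8sia6, a sialyltransferase of resting CD4 cells, was at 75 CPM from 15 UMIs against 6.66 CPM from 3 UMIs. Neither gene had enough UMIs to be tested. Il6ra, the interleukin 6 receptor, was at 235 and 99.9 CPM, and Cxcr4 at 240 and 113 CPM. Both Ly6c1 and St8sia6 had 9 UMIs in all CD8 cells, 3.20 CPM, against 31 and 21 UMIs in the far fewer CD4 cells.

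**Figure D4:**
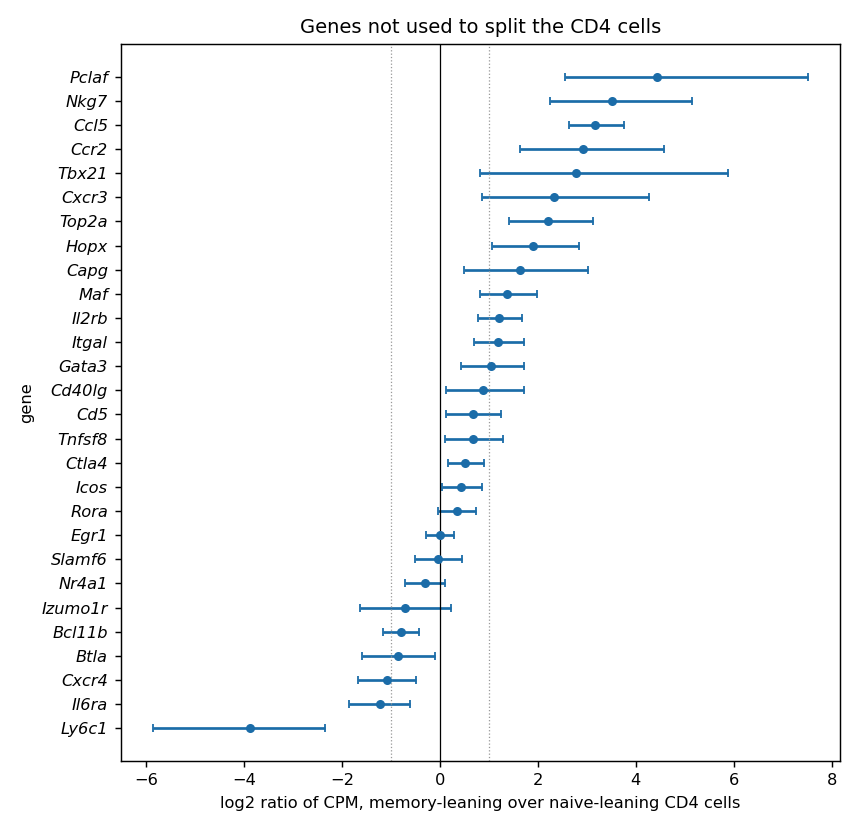
Log2 ratio of CPM in memory-leaning over naive-leaning CD4 cells for 28 genes that did not define the split, with bars for 95% exact intervals of the counts, a line at 0 and dotted lines at 2-fold. Pclaf, Nkg7 and Ccl5 lie above 3, Cd40lg, Icos and Rora within 2-fold, and Ly6c1 lowest at -3.87. Ly6c1 rests on 4 and 26 UMIs, below the minimum for testing.

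The helper programmes were uneven. At 1000 UMIs per cell, a UMI of Tbx21, Ifng or Cxcr3 was found in 41 of 305 CD4 cells, 13.4% (9.82 to 17.8%), in 9.12% (7.46 to 11%) of CD8 cells and in 0.575% of B cells. Foxp3 cells had 21.1% (14 to 29.7%), with Cxcr3 alone in 16.7% of them and Ifng in 0%. The defining genes of this and the following sets were picked after values had been seen. Of 9 tested Th1 genes 2 were past 2-fold higher than in CD8 cells. Cxcr3 was at 73.1 and 29.5 CPM and Tnf at 74.5 and 36.3 CPM. Tbx21, at 49.7 and 30.6 CPM, and Ifng, at 52.6 and 55.1 CPM, did not reach 2-fold, and Ifng UMIs were found in 29 CD4 cells.

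Th2 genes were found in few cells. None of the 10 reached 50 UMIs over both lineages in 20 cells, so none entered the counts above. At 1000 UMIs, 9 CD4 cells, 2.95% (1.36 to 5.53%), had a UMI of Il4, Il5, Il13 or Il1rl1, compared with 0.093% of CD8 cells, 0.101% of B cells and 25.4% of Foxp3 cells. Il1rl1, the receptor for interleukin 33, had 65 UMIs in 11 CD4 cells, 43.1% of them from 1 cell, and 3 UMIs in CD8 cells. Il13, a cytokine of type 2 responses, had 22 UMIs in 3 CD4 cells, 86.4% from 1 cell, and 0 in CD8 cells. Il5 had 3 UMIs and Il4 had 2. Foxp3 cells had more Il1rl1, at 283 CPM against 95 CPM in CD4 cells. At 1000 UMIs Il1rl1 alone was found in 8 CD4 cells and in 25.4% of Foxp3 cells. Foxp3 cells had 0 UMIs of Il4, Il5 and Il13, so their share of this set reflects that receptor gene.

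Th17 cytokines were likewise rare but not nil. Il17a had 10 UMIs in 7 CD4 cells, 14.6 CPM (7.01 to 26.9), and 1 UMI in CD8 cells, and Il22 had 7 UMIs in 3 CD4 cells. Both had 0 UMIs in B and tumour cells. Il17a was higher in the cells with none of Cd4, Cd8 and Foxp3, at 28.3 CPM.

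For follicular helper genes the picture was split by gene. Cxcr5, the receptor for entry into B cell follicles, was lower in CD4 cells at 10.2 CPM in 7 cells, compared with 37.3 CPM in CD8 and 122 CPM in B cells. Bcl6 was at 36.5 CPM in 20 cells and 51.9 CPM in B cells, and Il21 had 1 UMI. The share of CD4 cells with Cxcr5, Bcl6 or Il21 was 2.62% (1.14 to 5.1%), beside 5.21% (3.96 to 6.71%) of CD8 cells and 16.3% of B cells. Slamf6, a receptor of progenitor and follicular cells, was higher at 272 against 81.1 CPM, in 114 CD4 cells. Of 8 tested genes of this list, 3 (Icos, Maf and Slamf6) were past 2-fold higher and 1 (Cxcr5) lower.

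Without drawing down, the Th1 and Th2 sets shared 2 CD4 cells of 79 and 12. Of the 58 cells with Cd40lg, 19 or 32.8% had a gene of the Th1 set, 4 a gene of the Th2 set and 7 a gene of the follicular set. At the depth of these cells a lack of UMIs does not show that a programme was absent.

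**Figure D5:**
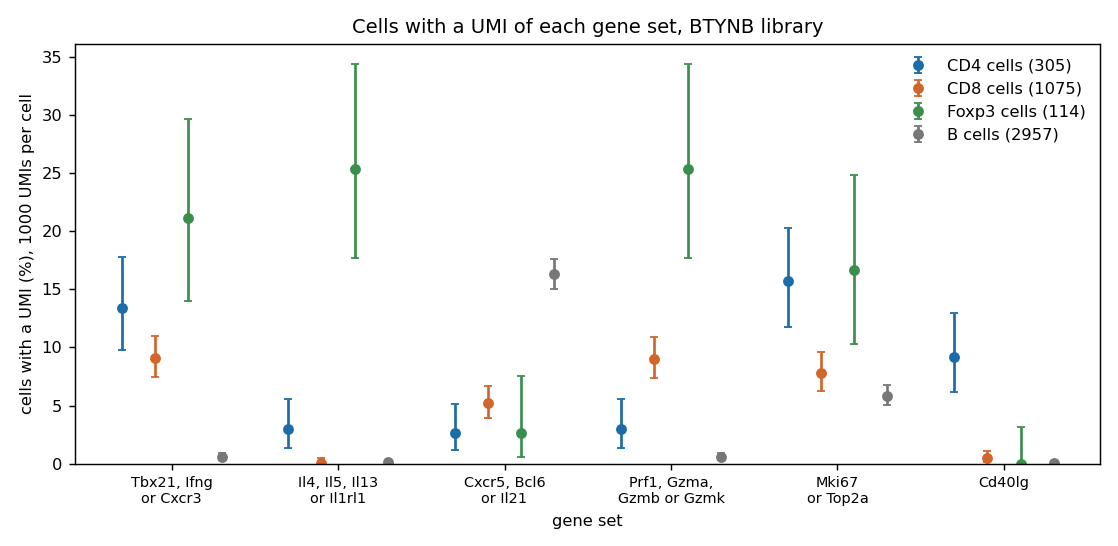
Percent of cells with at least 1 UMI of each gene set at 1000 UMIs per cell, in CD4 cells (blue, 305), CD8 cells (orange, 1075), Foxp3 cells (green, 114) and B cells (grey, 2957) of the BTYNB library, with bars for 95% exact binomial intervals. CD4 cells reach 13.4% for the Th1 set, 2.95% for the Th2 set and 9.18% for Cd40lg, and lie below B cells for the follicular set. Foxp3 cells reach 21.1%, 25.4% and 0% for the first 3 of these. Their Th2 set share comes from Il1rl1, without a UMI of Il4, Il5 or Il13.

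Regulatory genes were present in CD4 cells at levels far under those of Foxp3 cells. Over 3761 genes tested between them, 168 or 4.47% were at least 2-fold higher in CD4 cells and 154 or 4.09% lower. All 8 tested genes of the regulatory list were lower. Il2ra, the high-affinity interleukin 2 receptor chain, was at 61.4 CPM in 10 CD4 cells and 997 CPM in Foxp3 cells, and Ikzf2, the Helios factor, at 62.8 and 1057 CPM. Ctla4, the inhibitory competitor of Cd28, was at 549 CPM in 138 CD4 cells, 1968 CPM in Foxp3 cells and 174 CPM in CD8 cells. Relative to CD8 cells, 5 of the 7 tested regulatory genes were past 2-fold higher, among them Tnfrsf4 (OX40) at 58.4 and 12.1 CPM and Tnfrsf18 (GITR) at 93.5 and 43.4 CPM. Tnfrsf9 (4-1BB) was lower at 26.3 and 102 CPM. A CD4 cell whose Foxp3 was not captured cannot be told apart from a conventional one here.

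Naive genes lay on the side of the CD4 cells. Tcf7 was at 913 CPM in CD4 and 78.2 CPM in Foxp3 cells, and 7 of 11 tested naive genes were past 2-fold higher in CD4 cells, with none lower. Cd40lg was at 145 and 13.5 CPM and Tnfsf8 at 226 and 5.39 CPM. Itgb1 was at 1141 and 434 CPM, while S100a6 was at 544 and 1666 CPM and Ccr2 at 145 and 879 CPM.

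Inhibitory receptors had unlike levels in CD4 and CD8 cells. Ctla4, given above, was past 2-fold higher in CD4 cells. Btla, which restrains receptor signals, was at 97.9 CPM (75.9 to 124) in 55 CD4 cells, 73.6 CPM in CD8 cells and 37.7 CPM in Foxp3 cells. Pdcd1, which encodes PD-1, had 17 UMIs in 15 CD4 cells, 24.8 CPM (14.5 to 39.8), and stood at 28.5 CPM in CD8 cells. Lag3 had 0 UMIs in CD4 cells and was at 27.0 CPM in CD8 cells, at least 6.17-fold lower. Havcr2 (TIM-3), Cd160 and Cd244a had 2 UMIs each. Tigit was at 36.5 and 37.7 CPM. Lag3, Havcr2, Cd160 and Cd244a met the minimum only through the CD8 cells.

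Receptor response genes differed in both directions and early response genes not past 2-fold. Egr1, an immediate early gene, was at 788 CPM in CD4 and 382 CPM in CD8 cells but at 1110 CPM in B cells, and Egr2, a target of strong receptor signals, at 45.3 and 10.3 CPM. Nr4a1, which reports receptor engagement, was at 358 and 208 CPM, below 2-fold. Myc was lower at 35.1 and 127 CPM. Of 13 tested receptor response genes, 3 were past 2-fold higher and 2 lower, and of 15 early response genes none was past it either way, Fos being at 3364 and 2557 CPM. Cells were frozen and thawed before capture, and the part of handling in these genes was not tested.

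Adhesion and chemokine receptors separated the lineages further. Itga4, the VLA-4 partner of Itgb1, was found in 168 CD4 cells at 827 CPM, compared with 335 CPM in CD8 cells. Cd27, a costimulatory receptor, was lower at 16.1 and 72.2 CPM. Over the 14 tested homing genes 2 were past 2-fold higher and 4 lower. Of 16 cytokine receptor genes none was past 2-fold, Il2rb being at 478 and 604 CPM and Tgfbr2 at 435 and 238 CPM. Among 14 tested interferon-related genes 3 were past 2-fold higher, including Ly6a at 659 and 227 CPM and Ifi27l2a at 343 and 117 CPM, and Ly6c2 alone was lower.

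More CD4 than CD8 cells carried Mki67 or Top2a, while shares of other cycle genes went both ways. Mki67 or Top2a was found in 15.7% (11.8 to 20.3%) of CD4 and 7.81% (6.28 to 9.58%) of CD8 cells at 1000 UMIs, beside 16.7% of Foxp3, 5.85% of B and 18.8% of tumour cells; before drawing down the shares were 23.4% and 14.6% in CD4 and CD8 cells. Summed levels were closer, with Mki67, a nuclear protein of dividing cells, at 183 and 118 CPM and Top2a, a topoisomerase, at 247 and 164 CPM. Of 15 tested cycle genes, 2 were past 2-fold higher than in CD8 cells and none lower, with a median log2 ratio of 0.62. At 1000 UMIs Tubb5 was found in 16.1% of CD4 and 28.2% of CD8 cells, and Hmgb2 in 61% and 46.8%. Within the CD4 cells Top2a was at 324 CPM in memory-leaning and 70 CPM in naive-leaning cells, and 6 of 7 tested cycle genes were past 2-fold higher in the memory-leaning cells. Ccna2, a cyclin of dividing cells, was at 78.9 and 34.9 CPM with 27.8% of its CD4 UMIs from 1 cell, and turned to a log2 ratio of -0.53 without the cells with Mki67 or Top2a. Without the cells with Mki67 or Top2a, CD4 cells were 1.29% of kept cells.

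Markers of other cells were checked in the CD4 gate. Over 12 B cell markers the summed level was 1384 CPM in CD4 and 1930 CPM in CD8 cells, with Ms4a1 at 1 UMI in CD4 cells. Over 14 myeloid markers it was 1172 and 1014 CPM, with the macrophage gene Adgre1 at 0 and Csf1r at 3 UMIs. Gamma-delta and innate-like T markers summed to 43.8 CPM in CD4 and 163 CPM in CD8 cells, with Sox13 and Trdv4 at 0 in CD4 cells. Their sum was 1211 CPM in the cells with none of Cd4, Cd8 and Foxp3. Tumour markers summed to 276 CPM in CD4 and 261 CPM in CD8 cells, and haemoglobin and platelet markers to 565 and 347 CPM. Their part in the lineage comparison was not tested.

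Tumour markers had UMIs in 99 CD4 cells and myeloid markers in 136, whereas a few cells carried most neutrophil, class II and haemoglobin UMIs. Neutrophil genes S100a8, S100a9 and Csf3r summed to at least 3 UMIs in 7 CD4 cells, which held 232 of the 237 such UMIs. Class II genes Cd74, H2-Aa and H2-Ab1 reached 20 UMIs in 4 CD4 cells holding 641 of 870 UMIs, and haemoglobins 5 UMIs in 5 cells holding 359 of 383. Cxcl2 (149 CPM in 6 cells) and Hdc (73.1 CPM in 9 cells), which ranked among the 12 genes with the highest ratios, turned to log2 ratios of -1.23 and -1.38 without the cells of these 3 kinds, a limit set after values had been seen, and S100a9 to -0.57. Hba-a2, a haemoglobin, turned to -1.20 without cells with Mki67 or Top2a. Cxcr3, Tnf, Tnfsf8, Cd28 and Egr1 came within 2-fold in at least 1 of 16 settings tried, at lowest log2 ratios of 0.68, 0.30, 0.65, 0.85 and 0.87, and Cd44 and Tnfrsf18 reached 0.96 and 0.98. Gzmb, Tnfrsf9 and Satb1 came as near as -0.15, -0.01 and -0.79, and Klrc2 and Cd160 as near as -0.92 and -0.77. Cd40lg, Icos, Maf, Rora and Gata3 stayed at least 2-fold higher in all 16 settings, and Ly6c2, Klrd1 and Ccl5 at least 2-fold lower. Igf2bp1, the target of BTYNB, had 2 UMIs in CD4 cells.

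The 4 CD4 cells of the combination library had 5322, 7407, 6587 and 6074 UMIs. Cd40lg was at 0, 2, 0 and 4 UMIs in them, Gata3 at 1, 2, 0 and 9, and Mki67 at 0, 4, 0 and 7. The second and the fourth cell had both Cd40lg and Mki67, and the first and the third had neither. Summed over these cells Maf was at 473 CPM, compared with 326 CPM in the 14 BTYNB CD4 cells of like depth, from 12 and 34 UMIs. No comparison of states between the treatments could be drawn from 4 cells.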

How the data were processed

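The authors pooled ascites cells of 6 mice per treatment, removed erythrocytes, froze and thawed the cells, captured them on BD Rhapsody and sequenced polyadenylated RNA. Per the labels, the deposited matrices hold UMI counts per gene and cell from the BD Rhapsody pipeline on genome build GRCm39, unnormalized. The 4 libraries held 7858 to 19247 cells and 78603888 to 114600397 UMIs. Their median UMIs per cell ran from 2562 to 9480. From these counts, cells with at least 200 genes and at most 33% UMIs of mt- genes were kept. UMIs were summed over the cells of a gate and given as CPM with exact Poisson intervals. Shares carry exact Clopper-Pearson intervals, and log2 ratios the exact interval of 2 counts. All are 95% intervals of counting error. No test was made, since a treatment had 1 library. Genes needed 50 UMIs over both gates and 20 cells. Differences were called at 2-fold, with a gate at 0 set to 3 counts.

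For shares, each cell was drawn down once to 1000 UMIs, which left out 3 CD4 and 9 CD8 cells. B cells (at least 3 UMIs of Cd79a and Cd79b, none of Cd3) and tumour cells (at least 3 keratin UMIs, none of Cd3 or Ptprc) gave the background. Doublets were kept in the values reported; leaving out the 5% of cells with the highest scrublet scores, which removed 11 CD4 and 31 CD8 cells, was an alternative. Named genes were members of 24 lists with 284 distinct genes, the 12 highest and 12 lowest log2 ratios, Igf2bp1 and the gate genes. The members and lists were chosen with earlier results of these data known. The programme sets and 3 alternatives were added after values had been seen. Scripts used Python 3.11.15, numpy 2.4.6, scipy 1.17.1 and scanpy 1.11.5, and were tested on simulated data. Results for a few genes, and for 1 gene set that needs one of them, are not reported here.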

Additional observations from a re-analysis of the deposited data

Results flagged for a closer look

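CD4 cells were also found in the combination library, which the comparison of CD4 with CD8 cells does not use, at 0.0568% of kept cells (0.0155 to 0.145%), or 4 of 7042. The control library held 0 CD4 cells of 7834, which allows up to 0.0383%, a limit above the lower bound of the combination's interval. The difference between these libraries was not tested.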

How the results depend on the processing

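No paired analysis was possible because each treatment was represented by 1 library. The share of CD4 cells among kept cells was 1.11% with a Cd3 sum of at least 3, 2.38% with at least 1, 0.689% with 2 UMIs of Cd4 (and of Cd8 for CD8 cells), 1.35% with the lineage ceilings at 0, 1.13% in cells of at least 2000 UMIs and 1.29% without cells with Mki67 or Top2a. The ratio of CD4 to CD8 cells fell to 0.144 with 2 UMIs of each and 0.201 in cells of at least 2000 UMIs. Memory-leaning CD4 cells were 52.1% with a Cd3 sum of at least 1, 71.3% in cells of at least 2000 UMIs and 45.2% with lists of 6 genes. Memory-leaning CD8 cells were 28.8% with a Cd3 sum of at least 3, 18.4% without deep cells, 30.2% in cells of at least 2000 UMIs and 19% without cells with Mki67 or Top2a. Over 16 settings the CD4 share ran from 45.2 to 71.3% and the CD8 share from 18.4 to 30.2%, without overlap. Genes past 2-fold higher numbered 177 and lower 186 with 5 CPM added, 144 and 144 with a minimum of 100 UMIs, and 452 and 592 with a minimum of 20 UMIs. Genes lower numbered 141 with each cell at 1000 UMIs. The share of CD4 cells with Cd40lg was 14% at 1500 UMIs.

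Log2 ratios were recomputed for 81 named genes under 16 settings, giving 1296 values, of which 1159 stayed within the counting interval, 125 moved outside it in the same direction and 12, in 5 genes, changed sign. Cxcl2 was at -2.05 with 2 UMIs of Cd4 and of Cd8, -1.42 without the highest doublet scores and -1.23 without cells with genes of another kind. S100a9 was at -0.61, -0.55 and -0.57 under the same settings. Hdc was at -0.04 without the highest doublet scores and -1.38 without cells with genes of another kind. Hba-a2 was at -0.57 with 2 UMIs of Cd4 and of Cd8, -0.04 in cells of at least 2000 UMIs and -1.20 without cells with Mki67 or Top2a. Ccna2 was at -0.53 under the last of these. Cxcl2, Hdc, S100a9 and Hba-a2 had UMIs in 6, 9, 10 and 11 CD4 cells. The causes were not tested. At a median of 1896 UMIs per CD4 cell, a gene with few UMIs cannot be called absent from a cell.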
